A study of Homo sapiens with 5 samples.

Results

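SW480 is an established human colorectal adenocarcinoma cell line. GFP-labelled parental SW480 cells were injected into zebrafish embryos, and the tumors were dissected at 1 or 4 days post injection (dpi). GFP had been introduced with a lentivirus. In every group the tumors were pooled, digested with liberase in medium that held an anoikis inhibitor, and sorted as DAPI-negative, GFP-positive single cells into wells for SORT-seq, in which unique molecular identifiers (UMIs) count the polyadenylated RNA molecules of each well. The comparison described here is between the 1 dpi cells with the lowest and those with the highest share of UMIs on mitochondrially encoded (MT-) genes. Each of libraries 6, 7 and 8 is 1 plate of 384 wells at 1 dpi, and libraries 10 and 11 are plates of 4 dpi. All groups are the same cell line in the same kind of host, and the 2 groups of a library shared the plate, the sort and the sequencing run. Wells with over 2000 genes and under 25% MT- UMIs were taken as cells, which left 531 of 1152 wells at 1 dpi and 822 cells in the series. The cells of each library were split into 4 equal bins by their share of MT- UMIs, and the groups were chosen by that measured share, the lowest bin as the low-share and the highest bin as the high-share group. The 262 cells comprised 56, 35 and 40 low-share cells in libraries 6, 7 and 8, and as many high-share cells. The remaining 269 cells lay between them. The plates use the same well barcodes, and 71 well positions passed in all 3 plates, so a shared barcode is not a shared cell.

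Mitochondrial DNA encodes core subunits of the respiratory chain and of ATP synthase together with the ribosomal and transfer RNAs needed to translate them. The other subunits, the mitochondrial ribosomal proteins and the factors that copy, transcribe and import are encoded in the nucleus, so an assembled respiratory chain needs both genomes. The share of MT- UMIs in a cell is also a routine filter in single-cell RNA sequencing. It depends on the amount of mitochondrial RNA and on the amount of all other RNA.

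The shares chose the groups and are given as a description. The median share of low-share cells was 6.99%, 6.86% and 6.78% in libraries 6, 7 and 8, and that of high-share cells 18.5%, 17.1% and 16.05%. In library 6 the last low-share cell had 8.68% and the next cell 8.69%, and the first high-share cell had 15.98% and the one below it 15.8%. The corresponding values at the lower edge were 8.49% and 8.51% in library 7 and 7.78% and 7.97% in library 8. At the upper edge they were 14.98% and 14.87% in library 7 and 14.4% and 14.3% in library 8. There was no gap in the shares at either edge, so the groups are the ends of a continuous range.

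Both terms of the share differed between the groups when set against the ERCC spike-in RNA added to each well. MT- UMIs per spike-in UMI were 2.10, 2.08 and 2.64 times as high in high-share as in low-share cells of libraries 6, 7 and 8. Non-mitochondrial UMIs per spike-in UMI were 110, 109 and 48.8 in low-share cells and 70.2, 76.4 and 42.5 in high-share cells, which is 1.56, 1.43 and 1.15 times as many in low-share cells. Low-share cells also had more genes, with medians of 6780, 6595 and 5801 against 4979, 5732 and 4981. High-share cells thus had fewer genes and fewer non-mitochondrial UMIs per spike-in UMI in each library. The part of depth in the gene ratios was examined by ranking cells within bins of depth, as given with the counts of genes.

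**Figure D1:**
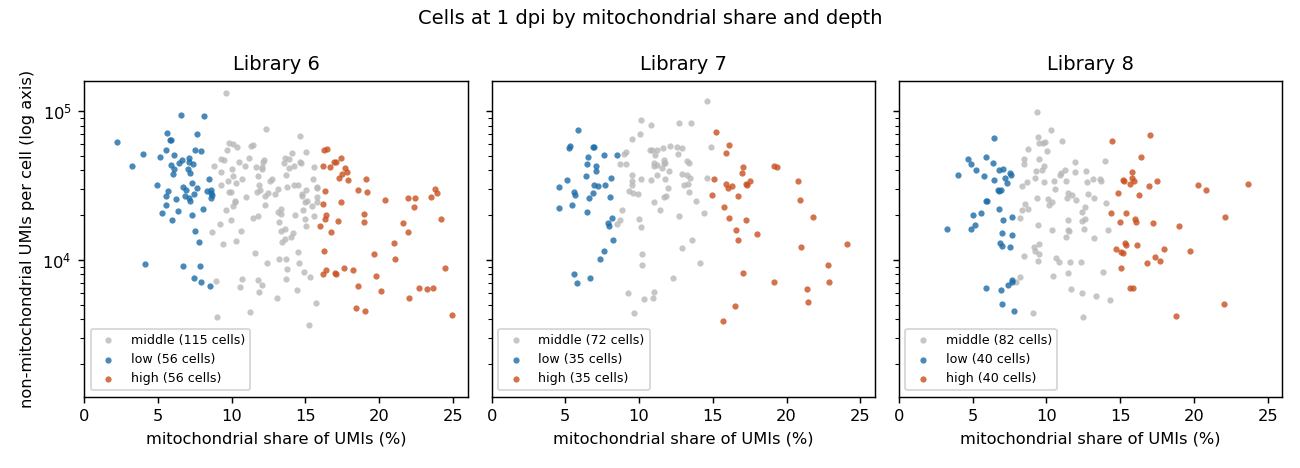
Each point is a cell of 1 dpi, by its mitochondrial share of UMIs (x axis, percent) and its non-mitochondrial UMIs (log y axis), in blue for the low-share bin, orange for the high-share bin and grey for the cells between. Median shares were 6.99%, 6.86% and 6.78% in the low-share groups and 18.5%, 17.1% and 16.05% in the high-share groups, and the median depth was lower in the high-share group of each library.

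The composition of the mitochondrial RNA was not the same in the groups. MT-RNR2, the large ribosomal RNA, took 15.6%, 16.9% and 16.1% of the MT- UMIs of low-share cells in libraries 6, 7 and 8 and 12.8%, 12.6% and 11.9% in high-share cells. MT-ND1, a complex I subunit, took 12.6% ± 0.978 (SD, n = 3) in low-share and 11.0% ± 0.145 in high-share cells, and MT-ND4, another subunit of that complex, 17.2% ± 0.315 and 15.97% ± 0.244. The order was the opposite for MT-ATP6, a subunit of ATP synthase, with 9.70% ± 0.050 in low-share and 11.2% ± 0.184 in high-share cells, and for MT-CYB of complex III, with 5.67% ± 0.441 and 7.06% ± 0.178. These rows defined the groups, so no test was made on them.

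Markers of colon epithelium were detected in both groups and those of other human cells were at or near 0. All 8 colon epithelial markers (EPCAM, CDH1, KRT8, KRT18, KRT19, CDX2, VIL1 and CDH17) had UMIs, with a summed level of 4701 to 5942 counts per 1000000 non-mitochondrial UMIs (CPM) in low-share and 5264 to 7542 CPM in high-share sums. Of 20 markers of blood, stromal and endothelial cells, 11 were at 0, and the others summed to 15.03 to 25.3 CPM and 19.6 to 31.3 CPM.

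To compare the other genes, UMIs of non-mitochondrial genes were summed per library and group, giving 6 sums of 893206 to 2033455 UMIs. The quasi-likelihood F test of edgeR was fitted with the library as a block, and p-values were adjusted by Benjamini-Hochberg over every gene in the fit, with a threshold of 0.05. In such sums a higher level per cell cannot be told apart from more cells with the transcript. Ratios are given as log2 of low-share over high-share, so positive values are higher in low-share cells. Of 9577 genes tested, 576 (6.01%) were higher in low-share cells and 736 (7.69%) were higher in high-share cells, with a median log2 ratio of 0.01 over all genes. Of the 1312 genes called, 1308 had the same direction in 3 of 3 libraries, as had 24.3% of all genes tested toward low-share and 24.9% toward high-share cells. The sums of the 2 groups did not overlap for 1206 of the called genes. Over all genes tested, 15.4% did not overlap with low-share above and 15.9% with low-share below. When cells were ranked within 4 bins of depth, 557 and 744 genes were called, and 1028 of the 1312 earlier calls were made again. With cells ranked within 2 bins of the share of UMIs on cell cycle genes, 546 and 649 were called, and 1104 again. In both rankings 1310 of the 1310 earlier calls tested kept their direction. This was nearly fixed, since they were called in the same plates by the same share.

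The counts of called genes depend on the tool, the cells, the libraries and the scaling. DESeq2 called 130 and 318 genes, a mitochondrial maximum of 15% gave 182 and 220, and thinning every cell to 5000 UMIs gave 104 and 164 of 4363 genes tested. Without library 7 edgeR called 0 genes (smallest adjusted p = 0.159, 1833 genes at an unadjusted p under 0.05) and DESeq2 called 9 and 19. All 1312 ratios kept their sign, but this was nearly fixed, since the genes were chosen with library 7 included. Without library 6 or 8 edgeR called 334 and 347 or 416 and 638. All ratios are relative to the other genes, since per spike-in UMI the median gene was 0.63 higher in low-share cells on the log2 scale, and with total UMIs in place of TMM factors 0.17 higher, with 1188 and 394 calls (75.1% of calls higher in low-share cells against 43.9%). List medians per spike-in UMI are given beside the others and are to be read against 0.63.

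The 269 cells between the groups were used by neither, and the second and the third bin were compared in the same way. Their ratio had the direction of the outer bins for 1170 of the 1300 called genes that could be tested, although only 26 and 3 genes passed the threshold by themselves. MKI67, CDK1 and CENPF, genes of mitosis, were among the exceptions and are described with the cell cycle.

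The largest ratios toward low-share cells included secreted signals, an inhibitor of the cell cycle and metal-binding proteins. CCL20, the chemokine ligand of CCR6, had 42.9, 198 and 129 CPM in low-share and 19.8, 10.8 and 29.6 CPM in high-share cells of libraries 6, 7 and 8. Its low-share level varied more between libraries than its high-share level, but the groups did not overlap, and the log2 ratio was 2.40 (SE 0.34, adjusted p = 0.000978). VGF, the precursor of secreted neuropeptides, had 60.6, 116 and 99.0 CPM against 20.6, 18.1 and 12.5 CPM (2.33, SE 0.25, adjusted p = 0.000218). NEURL3, an E3 ubiquitin ligase of the Neuralized family, was even across libraries, with 51.5, 50.2 and 63.8 CPM against 16.3, 12.04 and 15.9 CPM (1.87, SE 0.24). It fell in order over the 4 bins of share in 3 of 3 libraries, with mean levels of 55.3, 33.2, 24.9 and 14.7 CPM. Few named genes were in order in 3 of 3 libraries, and CCL20 was in 0 of 3.

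CDKN2B, an inhibitor of the cyclin-dependent kinases CDK4 and CDK6, had 42.5, 106 and 55.2 CPM in low-share and 25.8, 9.63 and 13.6 CPM in high-share cells (log2 ratio 1.86, SE 0.34). The metallothionein gene MT1E had 279, 418 and 393 CPM against 125, 39.7 and 143 CPM (1.83, SE 0.26), and reads of metallothionein genes may be shared between near-identical copies. The remaining genes of this group were SLC44A2 (1.81), a choline transporter-like protein, ABAT (1.65), the mitochondrial GABA transaminase, the homeobox gene MSX1 (1.64), the atypical IkB protein BCL3 (1.47) and CABLES1 (1.38), which binds cyclin-dependent kinases. Adjusted p ranged from 0.000218 for VGF to 0.00446 for CDKN2B.

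Toward high-share cells the largest ratios were seen for genes of DNA synthesis, the secretory pathway and the cell surface. PLAUR, the urokinase receptor, had 247, 524 and 395 CPM in high-share and 32.1, 177 and 224 CPM in low-share cells of libraries 6, 7 and 8. Every high-share sum lay above every low-share sum, and the gap was widest in library 6 (log2 ratio -1.68, SE 0.25, adjusted p = 0.00138). KIAA0101, the PCNA-associated factor, had 155, 120 and 85.3 CPM against 41.1, 50.2 and 22.8 CPM (-1.68, SE 0.18). RRM2, a subunit of ribonucleotide reductase, had 140, 128 and 52.3 CPM against 54.7, 38.5 and 11.4 CPM (-1.63, SE 0.19), and its groups overlapped because library 8 was low in both. ANXA1, an annexin that binds phospholipids with calcium, differed most evenly, with 366, 332 and 345 CPM in high-share and 121, 124 and 154 CPM in low-share cells (-1.40, SE 0.14, adjusted p = 7.98e-05).

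PDIA4, a disulfide isomerase of the endoplasmic reticulum (ER), had 130, 66.2 and 91.0 CPM in high-share and 42.0, 26.8 and 40.9 CPM in low-share cells (log2 ratio -1.39, SE 0.18). CDK1, the kinase of mitotic entry, had 94.6, 73.4 and 72.8 CPM against 39.3, 39.4 and 15.2 CPM (-1.37, SE 0.22). The remaining genes of this group were the long non-coding RNA ELFN1-AS1 (-1.45), the mitochondrial amidoxime-reducing enzyme MARC1 (-1.42), IGFBP6 (-1.32), which binds insulin-like growth factors, and SEC24D (-1.32) of the COPII coat of vesicles leaving the ER. ELFN1-AS1 lies antisense to another gene, and the counting was not stated to use strand. MTRNR2L1, a nuclear copy of MT-RNR2, also had a ratio of -1.83, but its reads cannot be told apart with certainty from mitochondrial ones.

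Many nuclear-encoded subunits of oxidative phosphorylation were higher in high-share cells relative to the other genes, in the direction of the mitochondrial transcripts that chose the cells, whereas per spike-in UMI the medians of these lists were above 0. Of 38 complex I subunits tested, 23 were higher in high-share cells, and the median log2 ratio was -0.49 relative to the other genes (0.13 per spike-in UMI). NDUFA3 had 116, 166 and 148 CPM in high-share and 58.3, 72.8 and 79.9 CPM in low-share cells (-1.02, SE 0.15, adjusted p = 0.00131), and NDUFA12 was the called subunit nearest to 0 (-0.43, SE 0.13). Of 12 complex IV subunits, 11 were higher in high-share cells, with a median of -0.58 (0.03 per spike-in UMI). COX8A rose in order over the 4 bins in 3 of 3 libraries, with mean levels of 362, 446, 537 and 613 CPM from the lowest to the highest share (-0.78, SE 0.13), and COX5A had a ratio of -0.45 (SE 0.12).

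Of 16 ATP synthase subunits, 11 were higher in high-share cells, with a median of -0.52 (0.09 per spike-in UMI). ATP5D had 87.7, 95.1 and 102 CPM in high-share and 45.7, 46.1 and 55.2 CPM in low-share cells (-0.96, SE 0.17), and ATP5O had a ratio of -0.42 (SE 0.13). Of 13 subunits of complexes II and III, 4 were higher in high-share cells, with a median of -0.34 (0.26 per spike-in UMI), among them UQCR11 (-0.82) of complex III and SDHB (-0.40) of complex II. Each of these 4 medians was below 0 in each library. Relative to the median gene they were -0.37 to -0.60 with spike-in scaling. This was nearly fixed, since a change of scaling moves all genes of a sum alike. The shares of members called are to be read against 7.69% of all genes.

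Lists of genes for making and maintaining mitochondria had medians nearer to 0. Their counts are to be read against 7.69% of all genes toward high-share cells. Of 76 mitochondrial ribosomal proteins, 12 were higher in high-share cells, with a median of -0.31 (0.30 per spike-in UMI). MRPS14 had 37.0, 33.7 and 27.3 CPM in high-share and 20.3, 18.4 and 16.2 CPM in low-share cells (-0.83, SE 0.26), and MRPS23 a ratio of -0.42 (SE 0.14). Among 28 genes of protein import, 7 were higher in high-share cells, from TOMM5 (-0.78) to TOMM6 (-0.51), both small subunits of the outer membrane translocase, with a median of -0.24 (0.37 per spike-in UMI). Of 12 mitochondrial chaperones and proteases 3 were higher in high-share cells, with a median of -0.12 (0.51 per spike-in UMI), including the chaperonin HSPD1 (-0.59) and its partner HSPE1 (-0.76).

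Factors that copy and transcribe mitochondrial DNA were called about as often as all genes, of which 13.7% were called in either direction. Of 30 tested, 3 were higher in high-share and 1 in low-share cells, with a median of -0.04 (0.58 per spike-in UMI). TFAM, which packages mitochondrial DNA and starts its transcription, had 124, 157 and 129 CPM in low-share and 151, 137 and 146 CPM in high-share cells. The groups overlapped and the direction differed between libraries (log2 ratio -0.09, SE 0.14, adjusted p = 0.718). POLRMT, the mitochondrial RNA polymerase, had 16.3, 15.1 and 20.9 CPM against 27.5, 21.7 and 33.0 CPM and did not pass the threshold (-0.66, SE 0.27, adjusted p = 0.122). SSBP1, which binds single-stranded mitochondrial DNA, was higher in high-share cells, with 495, 497 and 479 CPM against 308, 303 and 244 CPM (-0.79, SE 0.13, adjusted p = 0.00232). POLG, the mitochondrial DNA polymerase, was higher in low-share cells (1.43, SE 0.45, adjusted p = 0.0470), but on only 86 UMIs in the 6 sums.

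Among 13 regulators of mitochondrial biogenesis tested, 1 passed the threshold, the deacetylase SIRT1, where 13.7% of all genes were called in either direction. It had 74.1, 93.8 and 70.4 CPM in low-share and 48.2, 62.6 and 38.7 CPM in high-share cells (0.68, SE 0.18, adjusted p = 0.0193). PPARGC1A, a coactivator of biogenesis, had 4.97, 22.6 and 24.7 CPM in low-share and 7.74, 1.20 and 10.2 CPM in high-share cells. It rested on 83 UMIs, was not in the same order in library 6 and did not pass the threshold (1.20, SE 0.55, adjusted p = 0.158). The median of the list was 0.24 (0.85 per spike-in UMI).

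Among enzymes of carbon metabolism, those of glycolysis were called most often. Over all genes 6.01% were called toward low-share and 7.69% toward high-share cells. The counts of the tricarboxylic acid cycle and fatty acid oxidation were not far from these shares. Of 18 glycolysis genes, 12 were higher in high-share cells, with a median of -0.48 (0.13 per spike-in UMI). LDHA, which makes lactate, had 1205, 1234 and 1175 CPM in high-share and 638, 555 and 622 CPM in low-share cells, with little spread within a group (-0.99, SE 0.13, adjusted p = 0.000642). ALDOA, the aldolase, had the called ratio nearest to 0 (-0.41, SE 0.13). Of 17 enzymes of the tricarboxylic acid cycle, 2 were higher in high-share cells, FH (-0.80), the fumarase, and MDH2 (-0.66), the mitochondrial malate dehydrogenase, and the median was -0.28 (0.34 per spike-in UMI). Of 18 genes of fatty acid oxidation, ACADVL, a long-chain acyl-CoA dehydrogenase, was higher in low-share cells (0.54) and 2 were higher in high-share cells, with ECI2 at -0.61 and a median of -0.17 (0.43 per spike-in UMI).

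Cytosolic ribosomal proteins, the longest list, had the most members called by number, while complex IV subunits, described above, had a higher share called. Of 79 tested, 65 were higher in high-share cells (7.69% of all genes were), with a median of -0.56 (0.05 per spike-in UMI). The medians in libraries 6, 7 and 8 were -0.69, -0.67 and -0.30, and the summed level of the list was 185204, 193386 and 179952 CPM in high-share and 114079, 124036 and 148400 CPM in low-share cells. RPS25 had 2489, 1906 and 1912 CPM against 1072, 1026 and 1411 CPM (-0.85, SE 0.15), rising in order over the bins in 3 of 3 libraries, and RPS19 had a ratio of -0.43 (SE 0.14). Reads of ribosomal protein genes may be shared with their many processed pseudogenes. Of 30 genes of ribosome biogenesis, 5 were higher in high-share cells, from NOP10 (-0.73) to NPM1 (-0.46), with a median of -0.27 (0.34 per spike-in UMI).

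Chaperones of the ER had the lowest median of all lists. Of 21 tested, 16 were higher in high-share cells (7.69% of all genes were). The median was -0.65 (-0.05 per spike-in UMI), with library medians of -0.83, -0.53 and -0.55. PDIA4, described above, had the smallest ratio, and CANX, the lectin chaperone calnexin, the called ratio nearest to 0 (-0.44, SE 0.12). Genes of this family are known to be induced through the ER stress element, a CCAAT box and a CCACG motif separated by 9 free bases, which was searched on both strands of RefSeq promoter windows (GRCh38.p14, 250 bases before to 50 after the gene start). A window was matched by symbol for 7471 of the 9577 genes tested, and 13 of these (0.174%) held the element. Of 20 list members matched, 6 held it, namely CALR, CANX, CRELD2, HSP90B1, HSPA5 and XBP1. The windows of 3 of them are shown because their levels are given next, with the fixed letters of the element in capitals.
HSP90B1, chr12:103930160-103930459, plus strand: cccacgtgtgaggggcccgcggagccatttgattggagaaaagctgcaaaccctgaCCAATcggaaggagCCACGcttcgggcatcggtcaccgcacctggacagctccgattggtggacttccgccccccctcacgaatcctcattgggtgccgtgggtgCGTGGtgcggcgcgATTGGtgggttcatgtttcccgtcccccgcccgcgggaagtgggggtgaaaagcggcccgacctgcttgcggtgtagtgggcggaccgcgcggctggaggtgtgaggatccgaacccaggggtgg
CRELD2, chr22:49918384-49918683, plus strand: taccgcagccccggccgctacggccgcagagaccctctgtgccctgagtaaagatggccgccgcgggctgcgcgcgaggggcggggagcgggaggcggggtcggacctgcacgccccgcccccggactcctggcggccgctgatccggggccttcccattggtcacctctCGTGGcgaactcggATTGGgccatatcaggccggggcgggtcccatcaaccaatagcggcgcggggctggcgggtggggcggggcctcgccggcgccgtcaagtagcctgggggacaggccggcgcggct
HSPA5, chr9:125241294-125241593, minus strand: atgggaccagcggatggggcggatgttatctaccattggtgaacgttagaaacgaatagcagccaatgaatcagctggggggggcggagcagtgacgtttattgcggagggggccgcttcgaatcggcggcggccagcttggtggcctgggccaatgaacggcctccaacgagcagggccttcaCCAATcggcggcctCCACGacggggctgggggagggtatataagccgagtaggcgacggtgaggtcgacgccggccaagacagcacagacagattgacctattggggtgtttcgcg

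HSP90B1, the HSP90 paralog of the ER, holds 2 copies of the element and had 1700, 833 and 1356 CPM in high-share and 683, 559 and 779 CPM in low-share cells (log2 ratio -0.90, SE 0.15, adjusted p = 0.00239). CRELD2, a secreted ER stress protein, had 115, 71.0 and 75.1 CPM against 47.5, 33.5 and 48.5 CPM (-1.03, SE 0.19, adjusted p = 0.00422). HSPA5, the HSP70 chaperone BiP, had 1933, 1158 and 1691 CPM against 985, 826 and 1611 CPM, and library 8 showed almost no gap (-0.51, SE 0.16, adjusted p = 0.0393). CALR, calreticulin, was also higher in high-share cells (-0.59, SE 0.13), and XBP1, a transcription factor of the unfolded protein response, was not called (-0.10, SE 0.15, adjusted p = 0.698). The element is a match of letters in these windows, and binding was not measured.

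Targets of ATF4, the transcription factor of the integrated stress response, had a median on the opposite side of 0. Of 20 tested, 7 were higher in low-share cells (6.01% of all genes were). The median was 0.48 (1.11 per spike-in UMI), and 0.01, 0.80 and 0.42 in libraries 6, 7 and 8. Other members were near 0 and not called, such as PSAT1 (-0.13), PHGDH (0.02) and ASNS (0.12). CHAC1, which degrades glutathione, had 71.0, 95.5 and 51.4 CPM in low-share and 34.4, 14.4 and 37.5 CPM in high-share cells (1.29, SE 0.29, adjusted p = 0.00957). SLC7A11, the cystine transporter, had 198, 256 and 195 CPM against 178, 144 and 125 CPM (0.52, SE 0.15), and is also a member of the NRF2 list. Of 18 genes of the NRF2 and iron list, 4 were higher in high-share cells (7.69% of all genes were). PRDX1, a peroxiredoxin, was at -0.86, and the list median was -0.37 (0.24 per spike-in UMI). PRDX1 rose in order over the bins in 3 of 3 libraries.

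Genes of NF-kB signaling and chemokines had the highest median. Of 16 tested, 10 were higher in low-share cells (6.01% of all genes were), with a median of 0.74 (1.37 per spike-in UMI) that was 0.68, 0.42 and 0.95 in libraries 6, 7 and 8. A kB-type site, searched as GGGA, 1 free base and TTTCC on both strands of the same windows, was found for 46 of 7471 genes (0.616%) and for 6 of the 12 list members matched, namely CXCL1, CXCL3, NFKB1, NFKBIA, REL and TNFAIP3. Of these windows 3 are shown, for 2 chemokines and 1 subunit of NF-kB, with the fixed letters of the site in capitals.
CXCL1, chr4:73869143-73869442, plus strand: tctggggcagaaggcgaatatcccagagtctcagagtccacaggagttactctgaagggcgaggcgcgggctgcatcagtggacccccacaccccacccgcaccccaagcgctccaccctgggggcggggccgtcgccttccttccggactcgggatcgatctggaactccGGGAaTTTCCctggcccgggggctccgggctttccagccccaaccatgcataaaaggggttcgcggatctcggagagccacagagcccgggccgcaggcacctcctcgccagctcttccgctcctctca
CXCL3, chr4:74038640-74038939, minus strand: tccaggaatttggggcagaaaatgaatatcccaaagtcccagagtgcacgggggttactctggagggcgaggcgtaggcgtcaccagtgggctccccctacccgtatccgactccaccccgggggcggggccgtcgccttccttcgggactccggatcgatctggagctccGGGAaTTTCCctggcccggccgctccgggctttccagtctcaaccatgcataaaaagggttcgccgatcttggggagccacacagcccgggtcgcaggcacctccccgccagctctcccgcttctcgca
REL, chr2:60881324-60881623, plus strand: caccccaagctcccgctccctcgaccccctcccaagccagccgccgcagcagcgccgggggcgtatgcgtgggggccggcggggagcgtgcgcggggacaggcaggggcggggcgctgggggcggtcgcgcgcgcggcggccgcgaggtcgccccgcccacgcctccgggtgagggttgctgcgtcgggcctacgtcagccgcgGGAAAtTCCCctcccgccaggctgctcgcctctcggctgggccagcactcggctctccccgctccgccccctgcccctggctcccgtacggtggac

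CXCL1, a chemokine that attracts neutrophils, had 24.0, 28.5 and 43.8 CPM in low-share and 5.16, 12.04 and 5.69 CPM in high-share cells (log2 ratio 2.07, SE 0.36, adjusted p = 0.00350), a ratio that was -0.13 when cells above 15% were left out. CXCL3, of the same family, had 38.9, 29.3 and 38.1 CPM against 14.6, 4.81 and 9.10 CPM (1.85, SE 0.31, adjusted p = 0.00303), and reads of these close relatives may be shared. REL, the NF-kB subunit c-Rel, had 115, 124 and 89.5 CPM against 60.2, 75.8 and 55.7 CPM (0.79, SE 0.16, adjusted p = 0.00675). TNFAIP3, the feedback inhibitor A20, was at 0.74 (SE 0.16) and NFKB1, the p50 subunit, at 0.57 (SE 0.14, adjusted p = 0.0155), while NFKBIA, the inhibitor IkB alpha, did not pass the threshold (0.42, SE 0.14, adjusted p = 0.0609). Groups did not overlap for CXCL1, CXCL3, REL, TNFAIP3 and NFKB1, as for most called genes and for 15.4% of all genes in this direction.

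Immediate early genes respond to signals without new protein synthesis. Of 32 tested, 14 were higher in low-share cells, with a median of 0.55 (1.16 per spike-in UMI). FOS, a subunit of AP-1, had 557, 1383 and 915 CPM in low-share and 493, 868 and 347 CPM in high-share cells. It was higher in low-share cells of each library, but libraries differed about as much as groups (0.74, SE 0.18, adjusted p = 0.0135). NR4A2, an orphan nuclear receptor, had the largest called ratio of the members with at least 10 CPM (1.24, SE 0.38) on 113 UMIs, and JUND, another AP-1 subunit, the smallest (0.43, SE 0.12). Of 20 heat shock genes, 1 was higher in low-share cells, the co-chaperone DNAJB1 (0.39), and 2 in high-share cells, with HSPB1 at -0.58 and a median of 0.01 (0.65 per spike-in UMI). These heat shock counts were near the shares over all genes, 6.01% and 7.69%.

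Of 9 tested targets of YAP, a transcriptional coactivator controlled by the Hippo pathway, 6 were higher in low-share cells (6.01% of all genes were). The median was 0.65 (1.26 per spike-in UMI). The targets CTGF, CYR61 and ANKRD1 had too few UMIs to be tested. AXL, a receptor tyrosine kinase, had 30.3, 29.3 and 18.1 CPM in low-share and 11.2, 8.42 and 11.4 CPM in high-share cells (1.31, SE 0.33), and AMOTL2, an angiomotin, had a ratio of 0.48 (SE 0.14). Of 10 genes of metallothioneins and zinc transport 4 were higher in low-share cells, with a median of 0.24 (0.85 per spike-in UMI). MT2A had 1063, 1445 and 1972 CPM against 1120, 619 and 917 CPM, so that library 6 had the opposite order (0.75, SE 0.20, adjusted p = 0.0204).

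Of 19 members of the BCL2 family and caspase list, 5 were higher in low-share cells, with a median of 0.07 (0.68 per spike-in UMI). They included genes of both roles, the pro-apoptotic BBC3 with 49.7, 52.7 and 60.0 CPM against 21.5, 14.4 and 42.1 CPM (1.10, SE 0.25) and the anti-apoptotic MCL1 with 208, 217 and 228 CPM against 129, 154 and 154 CPM (0.59, SE 0.13). BBC3 is also a p53 target, and of 20 p53 targets 3 were higher in low-share cells, the smallest called ratio being that of the nuclease AEN (0.48), with a median of 0.30 (0.94 per spike-in UMI). Of 19 interferon-stimulated genes, the transcription factor IRF1 was higher in low-share cells, with 135, 143 and 141 CPM against 61.9, 66.2 and 53.5 CPM (1.20, SE 0.16, adjusted p = 0.000642), and IFITM2 in high-share cells (-0.54). The list median was -0.24 (0.37 per spike-in UMI). Counts of these lists are to be read against 6.01% of all genes toward low-share and 7.69% toward high-share cells.

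Part of the cell cycle genes were higher in high-share cells relative to the other genes, and their order over the 4 bins depended on the list. Of 40 S-phase genes, 16 were higher in high-share cells (7.69% of all genes were). The median was -0.64 (-0.01 per spike-in UMI), with library medians of -0.61, -0.58 and -0.74. MCM2 of the replicative helicase had the called ratio nearest to 0 (-0.51, SE 0.16) and RRM2 the smallest with at least 10 CPM. Of 46 genes of G2 and mitosis, 11 were higher in high-share cells, with a median of -0.44 (0.17 per spike-in UMI, and 0.26 with cells split at the median share) and library medians of -0.52, -0.05 and -1.07. MKI67, a marker of proliferating cells, had 37.1, 43.5 and 3.81 CPM in low-share and 77.4, 51.8 and 26.2 CPM in high-share cells (-0.96, SE 0.28, adjusted p = 0.0337). CENPF, a kinetochore protein, had a ratio of -0.76 (SE 0.21).

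The level of MKI67 was highest in the second bin, with mean levels of 28.1, 70.6, 40.4 and 51.6 CPM from the lowest to the highest share. CDK1 had 31.3, 88.8, 49.4 and 80.1 CPM and CENPF 63.1, 136, 87.1 and 102 CPM. The second bin against the third gave a median of 0.77 for the G2 and mitosis list, opposite to the outer bins, and -0.11 for the S-phase list. The median log2 level of the G2 and mitosis list in the second bin, relative to the mean of the bins, was 0.56, 0.17 and 0.91 in libraries 6, 7 and 8.

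**Figure D2:**
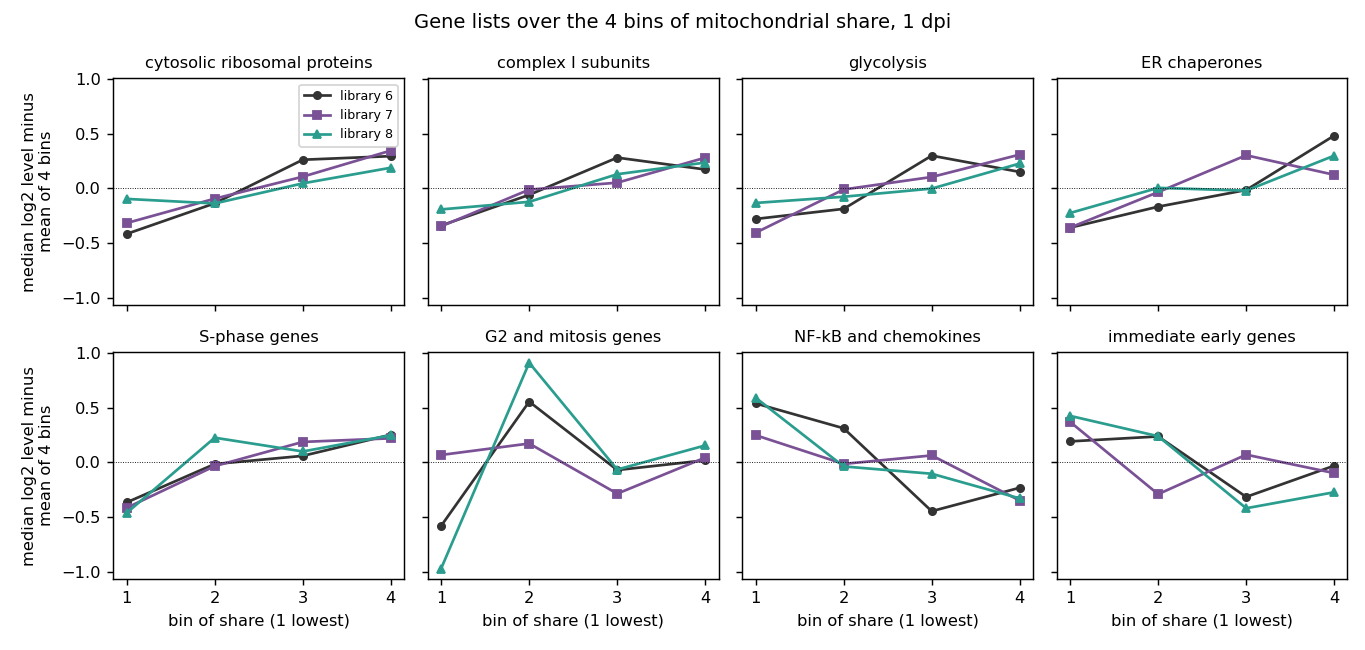
Median log2 level of the members of 8 gene lists in each bin of mitochondrial share (x axis, 1 lowest), minus their mean over the 4 bins, for libraries 6 (black circles), 7 (purple squares) and 8 (green triangles). Complex I subunits rose in order in libraries 7 and 8 and peaked in the third bin of library 6, whereas the G2 and mitosis list was highest in the second bin of each library, at 0.56, 0.17 and 0.91.

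Lists of cell identity and of Wnt and Notch signaling are given next. Their counts are to be read against 6.01% of all genes toward low-share and 7.69% toward high-share cells. Of 17 S100 proteins and annexins, 7 were higher in high-share cells, with a median of -0.46 (0.15 per spike-in UMI), from ANXA1 to ANXA2 (-0.43, SE 0.13). Of 18 epithelial and keratin genes, KRT23 was higher in low-share cells (1.11) and 2 in high-share cells, KRT8 (-0.62, SE 0.15) and KRT18 (-0.55, SE 0.15), with a median of -0.03 (0.59 per spike-in UMI). EPCAM, the epithelial adhesion molecule, had 1230, 1207 and 1270 CPM in low-share and 1385, 1620 and 1520 CPM in high-share cells and did not pass the threshold (-0.28, SE 0.13, adjusted p = 0.148). Of 13 mesenchymal genes, the transcription factor SNAI2 was higher in low-share (0.86) and the hyaluronan receptor CD44 in high-share cells (-0.92), with a median of -0.32 (0.31 per spike-in UMI).

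Of 21 Wnt targets, 2 were higher in low-share cells, not far from the 6.01% of all genes, with a median of 0.21 (0.82 per spike-in UMI). NOTUM, a secreted Wnt inhibitor, had 530, 325 and 502 CPM against 259, 227 and 350 CPM (0.70, SE 0.14), and the transcription factor SOX9 a ratio of 0.44 (SE 0.13). Of 14 Notch receptors and targets, NRARP was called, with 144, 103 and 102 CPM in low-share and 46.4, 90.3 and 79.6 CPM in high-share cells (0.74, SE 0.22, adjusted p = 0.0367), and the median was 0.03 (0.66 per spike-in UMI). The Notch effector HES1 had 795, 1742 and 529 CPM against 991, 1033 and 819 CPM (-0.06, SE 0.19, adjusted p = 0.882). HES5 had 250, 179 and 53.3 CPM against 41.3, 188 and 115 CPM (0.51, SE 0.40, adjusted p = 0.434), and for both genes the direction differed between libraries. None of the 3 secretory lineage genes tested was called by edgeR, among them the trefoil factor TFF3 with 86.4, 81.2 and 167 CPM against 74.8, 101.1 and 133 CPM (0.09, SE 0.16, adjusted p = 0.742), and their median was 0.09 (0.69 per spike-in UMI).

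Counts of the following lists are to be read against 6.01% of all genes toward low-share and 7.69% toward high-share cells. Of 13 hypoxia response genes, 3 were higher in low-share cells, including VEGFA (0.64), the angiogenic growth factor, and 2 in high-share cells, including NDRG1 (-1.23), with a median of -0.01 (0.63 per spike-in UMI). Of 22 cholesterol synthesis genes, STARD4, a sterol transfer protein, was higher in low-share (0.55) and DHCR7, the last enzyme of the pathway, in high-share cells (-0.86), with a median of -0.14 (0.49 per spike-in UMI). Among 35 proteasome subunits 10 were higher in high-share cells, from PSMB10 (-1.17) to PSMC2 (-0.40), with a median of -0.32 (0.29 per spike-in UMI). Of 20 genes of mitochondrial dynamics and mitophagy 2 were higher in high-share cells, FIS1 (-0.43) and PHB2 (-0.40), with a median of -0.07 (0.55 per spike-in UMI). Of 16 long non-coding RNAs, 2 were higher in low-share cells, including SNHG12 (0.71), and NORAD in high-share cells (-0.41), with a median of 0.00 (0.62 per spike-in UMI). MALAT1, an RNA retained in the nucleus, had 2301, 2309 and 2292 CPM in low-share and 3280, 2496 and 2122 CPM in high-share cells (-0.17, SE 0.14, adjusted p = 0.457), and NEAT1, the scaffold of paraspeckles, 193, 265 and 251 CPM against 486, 219 and 255 CPM (-0.40, SE 0.22, adjusted p = 0.244).

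To ask whether the same genes separated low-share from high-share cells later, the rule was applied to libraries 10 and 11 of 4 dpi, with 72 cells in each group, and the difference of the ratios was tested as an interaction in a fit of all 5 libraries. At 4 dpi 1896 of 10627 genes (17.8%) were higher in low-share and 1897 (17.9%) in high-share cells. The shares lay further apart there, with medians of 5.00% and 21.1% over the cells of both libraries, against 6.86% and 17.2% at 1 dpi. The ratio was higher at 4 dpi for 708 genes (6.66%) and lower for 558 (5.25%). Without library 11 the difference was called for 288 genes in all, and without library 10 for 688.

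The lists of oxidative phosphorylation and cytosolic ribosomal proteins had medians on the same side at both times, -0.49 and -0.65 for complex I and -0.56 and -0.75 for cytosolic ribosomal proteins at 1 and 4 dpi. A called difference was found for 3 of 38 and 1 of 79 of their members, against 1266 of all 10627 genes tested. The count for complex I is not far from that share. In simulated data the fit recovered 39% of 2-fold differences between times, so few calls do not show equal ratios. ER chaperones had a median of -0.65 at 1 dpi and 0.09 at 4 dpi, and 10 of 21 members had a higher ratio at 4 dpi. S100 proteins and annexins had -0.46 and 0.32, with 10 of 18 members higher. ANXA1 had 200 and 168 CPM in high-share and 527 and 245 CPM in low-share cells of libraries 10 and 11, opposite to 1 dpi (difference 2.38, SE 0.25, adjusted p = 4.17e-06). Wnt targets had 0.21 and -0.91, with 10 of 22 members lower at 4 dpi, and NOTUM differed by -1.95 (SE 0.22, adjusted p = 8.76e-06). ATF4 targets had 0.47 and 1.37, with 10 of 21 members higher, and S-phase genes -0.64 and -1.36, with 11 of 40 lower and 1 higher.

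**Figure D3:**
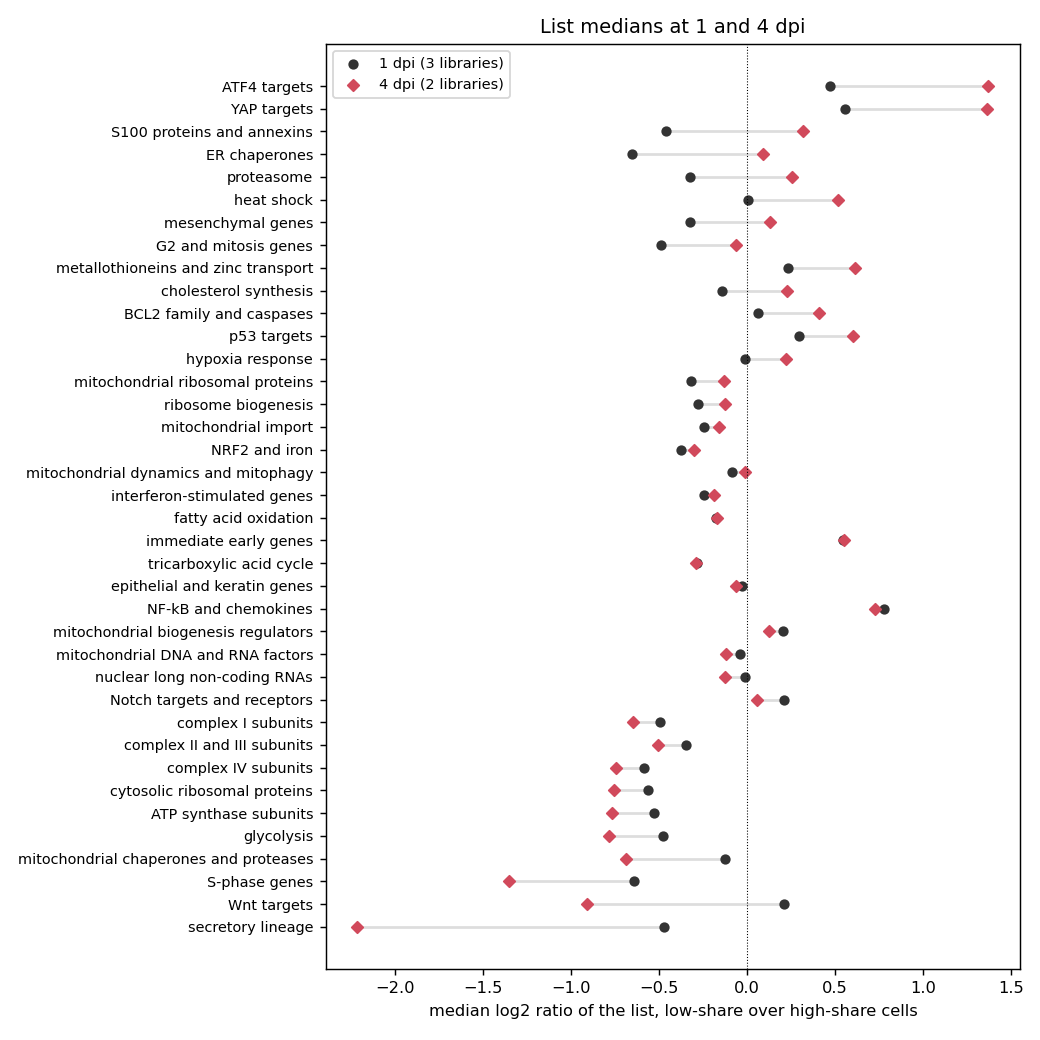
Median log2 ratio (x axis, low-share over high-share, relative to the other genes) of each gene list at 1 dpi (black circles, 3 libraries) and 4 dpi (red diamonds, 2 libraries), joined per list and ordered by the difference. ER chaperones went from -0.65 to 0.09 and Wnt targets from 0.21 to -0.91, while complex I subunits were at -0.49 and -0.65.

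The 3 largest and 3 smallest called differences among genes of at least 30 CPM are given by their levels. DHRS2, a short-chain dehydrogenase, had 739 and 498 CPM in low-share and 2.00 and 14.9 CPM in high-share cells of libraries 10 and 11. At 1 dpi it had 30.3, 195 and 56.0 CPM against 167, 16.9 and 64.9 CPM, with no common direction (difference 6.09, SE 1.04, adjusted p = 0.000654). NDRG1, a gene induced by hypoxia, had 42.5 and 58.5 CPM in low-share cells at 4 dpi, and in high-share cells 11.999 CPM in library 10 and 0 in library 11. At 1 dpi its order was the opposite, with 19.4, 20.9 and 26.6 CPM against 47.4, 35.0 and 78.6 CPM (difference 4.49, SE 0.63, adjusted p = 9.75e-05). TSC22D3, a glucocorticoid-induced gene, had 90.8 and 70.9 CPM against 4.00 and 1.49 CPM at 4 dpi and 34.3, 37.6 and 38.0 CPM against 28.4, 14.5 and 19.4 CPM at 1 dpi (difference 4.12, SE 0.64).

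In the other direction EPHB6, an ephrin receptor, had 23.8 and 26.4 CPM in low-share and 150 and 272 CPM in high-share cells at 4 dpi. At 1 dpi its levels were 49.2, 51.0 and 67.4 CPM and 38.8, 53.1 and 47.9 CPM (difference -3.31, SE 0.32, adjusted p = 1.79e-06). MYH7B, a myosin heavy chain, had 39.1 and 9.07 CPM against 210 and 147 CPM at 4 dpi (difference -3.31, SE 0.55) and GPR155, a cholesterol-sensing lysosomal protein, 22.1 and 11.5 CPM against 104 and 124 CPM (difference -2.81, SE 0.42). At 1 dpi MYH7B had 94.4 CPM in low-share cells of library 6 and between 22.8 and 54.3 CPM in the other sums, and GPR155 between 17.2 and 27.3 CPM in every sum.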

How the data were processed

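The authors aligned read 2 to the human transcriptome with BWA (version not given in the sources used here, hg38 in the submitters' processing notes) and deposited UMI counts per gene and well, not normalised. Genes listed in all 5 libraries and seen in at least 10 wells were kept (15028, spike-ins left out). Non-mitochondrial UMIs were summed per library and group and tested with edgeR 4.0.16 (R 4.3.3), with filterByExpr, TMM factors, a library block and Benjamini-Hochberg adjustment. DESeq2 1.42.0 was an alternative. Scripts were tested on simulated data. CPM are TMM-scaled. Doublets were not called. Libraries are the replicates. The sources do not state that plates came from separate tumor pools. With the library as block, p-values measure how the low-share over high-share ratio varied between plates. Members and gene lists were chosen with earlier results of these data known. Named genes were the 10 largest and 10 smallest called ratios in the same direction in every library at 30 CPM or more (nuclear copies of mitochondrial genes, here MTRNR2L1, left out), the extreme called members of each list at 10 CPM or more, a few preset genes, the 3 largest and 3 smallest differences between times, and members whose promoters held a motif.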

Additional observations from a re-analysis of the deposited data

Results flagged for a closer look

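For 30 of the named genes the low-share over high-share ratio differed between 1 and 4 dpi in edgeR's interaction test, with adjusted p from 1.79e-06 to 0.0477. Over all genes, 6.66% had a higher and 5.25% a lower ratio at 4 dpi. DHRS2, NDRG1, TSC22D3, EPHB6, MYH7B and GPR155 were picked by this same test, so their passing was fixed. Many of the others were named for their ratio at 1 dpi, which enters the difference. All values are the log2 ratio at 4 dpi minus that at 1 dpi.

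Some of the genes had called ratios on opposite sides of 0 at the 2 times. ANXA1 (2.38), ANXA2 (1.29), SEC24D (3.10) and NDRG1 (4.49) went from high-share to low-share cells. SEC24D had 54.3 and 51.9 CPM in low-share and 13.999 and 16.4 CPM in high-share cells of libraries 10 and 11. NOTUM (-1.95) and FOS (-1.54) went the other way, and FOS had 211 and 289 CPM in low-share and 570 and 330 CPM in high-share cells at 4 dpi.

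Another group had called ratios on the same side at both times that were further from 0 at 4 dpi. Toward low-share cells these were MSX1 (2.27), SIRT1 (1.38), VEGFA (1.04), SNHG12 (1.34), AMOTL2 (1.09), SNAI2 (1.40) and MT2A (1.18). Toward high-share cells they were KIAA0101 (-1.62) and HSPE1 (-0.79). SNHG12, a host gene of small nucleolar RNAs, had 875 and 606 CPM in low-share and 218 and 141 CPM in high-share cells of libraries 10 and 11.

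Genes called at 1 dpi whose ratio did not pass the threshold at 4 dpi were CCL20 (-2.37), ABAT (-1.56), KRT23 (-1.10), PLAUR (1.95), RRM2 (1.14), CDK1 (1.40), SDHB (0.72), MRPS23 (0.82) and PSMC2 (0.75). CCL20 had 2.55 CPM in low-share and 21.998 CPM in high-share cells of library 10 and 57.7 and 32.7 CPM in library 11, so its direction differed between the libraries of 4 dpi. Its difference between times was 0.53 with cells ranked within bins of depth and 0.77 with cells thinned to 5000 UMIs, opposite in sign to -2.37. The difference also changed sign for CDK1 (-0.19) with cells split at the median share and for SNAI2 (-0.17) with a mitochondrial maximum of 15%. Genes called at 4 dpi and not at 1 dpi were TFF3 (-2.31), MYH7B (-3.31), EPHB6 (-3.31), GPR155 (-2.81), TSC22D3 (4.12) and DHRS2 (6.09). TFF3 had 44.2 and 40.4 CPM in low-share and 176 and 217 CPM in high-share cells of libraries 10 and 11.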

How the results depend on the processing

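Against 576 genes higher in low-share and 736 in high-share cells and 1266 differences between times, DESeq2 called 130, 318 and 349 genes, a mitochondrial maximum of 15% gave 182, 220 and 305, thinning every cell to 5000 UMIs 104, 164 and 241, and the second against the third bin 26, 3 and 16. Library sizes without TMM factors gave 1188 and 394 calls, spike-in UMIs as library size, an alternative chosen after seeing the data, gave 4249, 18 and 743, and splitting the cells at the median share gave 825 differences. Leaving out 1 library gave 0 to 416 genes higher in low-share cells, 0 to 638 higher in high-share cells and 288 to 1070 differences, the 0 counts being those without library 7. Without the library as replicate block 491 and 636 genes were called, and 1116 of the 1312 calls were made again. All 1312 kept their direction, which was nearly fixed, since they were chosen from the same sums. The low-share and high-share sums of a library come from 1 plate, which is where the pairing comes from. The other alternatives, which were no filter on low counts, 1000 or 3000 genes per cell, no mitochondrial maximum, genes listed in any library, the share from coding rows only, lowest and highest terciles, and bins of depth or of cell cycle, left each count within 1.5 times its value. Among list medians, 23 of 38 changed sign per spike-in UMI. Of the medians over 0.1 from 0, others that changed sign were those of G2 and mitosis genes (0.26 with cells split at the median share and 0.77 for the second against the third bin), mesenchymal genes (0.026 with a maximum of 15%), fatty acid oxidation (0.088 with thinned cells), and mitochondrial chaperones (0.039) and cholesterol synthesis (0.016) without TMM factors. Medians nearer to 0 changed sign under 1 or more alternatives for the epithelial, heat shock, hypoxia, long non-coding RNA, secretory, mitochondrial dynamics and mitochondrial DNA lists. The ratios and differences of single genes that changed sign follow, and the cause was not tested. With at least 1000 genes per cell the ratio was 0.080 for HES1. With thinned cells the ratio was 0.34 for TFAM and the difference between times was 0.77 for CCL20. With cells split at the median share the ratio was 0.087 for CENPF, 0.21 for HES1 and 0.14 for MKI67 and the difference between times was -0.19 for CDK1. With terciles the ratio was 0.19 for HES1. With a maximum of 15% the ratio was -0.13 for CXCL1, 0.26 for HES1, -0.037 for STARD4 and 0.31 for XBP1 and the difference between times was -0.17 for SNAI2. Without the block the ratio was 0.11 for HES1. Within bins of cell cycle the ratio was 0.14 for HES1 and 0.0046 for XBP1. Within bins of depth the ratio was 0.011 for XBP1 and the difference between times was 0.53 for CCL20. For the second against the third bin the ratio was -0.0078 for ACADVL, 0.85 for CDK1, 0.67 for CENPF, 0.090 for DHCR7, 0.46 for HES1, 0.80 for MKI67, 0.069 for MRPS23, -0.10 for MSX1, -0.15 for NOTUM, -0.62 for NR4A2, -0.11 for POLG, 0.17 for POLRMT, 0.15 for RRM2, -0.21 for SLC7A11 and -0.094 for STARD4 and the difference between times was -0.58 for AMOTL2, -1.49 for CDK1, -0.11 for DHRS2, 0.64 for EPHB6, 0.11 for KRT23, -0.037 for MRPS23, 0.24 for NOTUM, -0.66 for RRM2 and -0.14 for SNAI2. Per spike-in UMI the ratio was 0.19 for ALDOA, 0.18 for ANXA2, 0.19 for ATP5O, 0.023 for CALR, 0.17 for CANX, 0.16 for COX5A, 0.0071 for ECI2, 0.32 for EPCAM, 0.18 for FIS1, 0.55 for HES1, 0.097 for HSPA5, 0.035 for HSPB1, 0.020 for HSPD1, 0.074 for IFITM2, 0.060 for KRT18, 0.44 for MALAT1, 0.11 for MCM2, 0.19 for MRPS23, 0.19 for NDUFA12, 0.23 for NEAT1, 0.20 for NORAD, 0.15 for NPM1, 0.21 for PHB2, 0.21 for PSMC2, 0.18 for RPS19, 0.21 for SDHB, 0.53 for TFAM, 0.11 for TOMM6 and 0.52 for XBP1. Without TMM factors the ratio was 0.099 for HES1, 0.065 for TFAM and 0.054 for XBP1. Without 1 library the ratio ran from -0.47 to 0.21 for HES1, -0.48 to 1.14 for HES5, -0.72 to 0.13 for NEAT1, -0.23 to 0.013 for TFAM, -0.047 to 0.27 for TFF3 and -0.22 to 0.11 for XBP1. Genes of low level such as POLG, with 86 UMIs over the 6 sums, have wide errors.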
